A study of Mus musculus with 2 samples.

Results

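DNA replication genes were followed in the livers of FVB/N mice given c-Myc by hydrodynamic injection, a fast tail vein injection that carries DNA into hepatocytes. The 45 genes were chosen by symbol, as the factors that load the replicative helicase, run the fork and supply its building blocks, and all 45 are among the 21878 symbols of the deposited count files. PolyA RNA was sequenced in 2 libraries, 1 from liver with c-Myc and no treatment (untreated) and 1 from liver with c-Myc and TSA. TSA is not spelled out in the labels, and the abbreviation is in common use for trichostatin A, an inhibitor of histone deacetylases. Dose, timing, age and sex, the origin of the injected sequence, and whether a sample was tumour, other liver or a pool of animals are not stated in the sources used here. The question of the study, per its title and design text, was how TSA acts on liver cancer driven by c-Myc. The untreated library held 17281523 counts and the TSA library 17088227, with 15292 and 14958 genes detected.

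A cell copies its genome by first marking origins with the origin recognition complex (ORC), on which CDC6 and CDT1 load the ring of MCM2 to MCM7. The kinase CDC7 with DBF4, together with CDC45, GINS and MCM10, then turns the loaded ring into an active helicase, and polymerases, the sliding clamp PCNA and its loader RFC copy both strands. E2F factors switch on most of these genes when a cell enters S phase. Hepatocytes of an adult liver seldom divide, so these transcripts are usually scarce there and become abundant when hepatocytes regenerate or form tumours.

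All 45 genes had lower levels in the TSA library than in the untreated library. Each was above 1 FPKM (a level scaled to gene length and to the library's total) without treatment, where they ranged from 2.59 to 184 FPKM with a median of 31.9. In the TSA library they ranged from 0.113 to 22.5 FPKM with a median of 2.10, and 36 of the 45 were above 1 FPKM. Together they took 0.482% of all counts without treatment and 0.0391% with TSA. FPKM and these shares follow the library totals, by which the summed counts were 12.3-fold lower. With the TMM scaling used below, the sum was 6.51-fold lower. In bulk tissue, fewer cycling cells and less replication RNA per cell cannot be told apart. No library was repeated, so there is no test between conditions. The ratio of counts, TSA over untreated, is given after TMM scaling in edgeR with a 95% interval for counting error alone (exact conditional binomial). A gene is called lower when its ratio is at least 2-fold down and the interval excludes 1. By this rule 42 of 45 replication genes were called lower and none higher, against 26.0% of the 13027 genes tested called lower and 27.0% called higher. Among the 10160 genes whose summed counts lay in the range of the replication genes, 120 to 6919, 26.4% were called lower.

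The median log2 ratio of the 45 genes was -2.93, which is 7.63-fold lower, and that of all genes tested was -0.04. At a limit of 4-fold, 36 of the 45 were called lower, against 12.0% of all genes tested. At 10-fold, 16 of the 45 were called lower, against 5.20%, and at 20-fold 6 of the 45, against 3.13%. The 6 were *Cdc7*, *Clspn*, *Orc1*, *Rrm2*, *Cdc6* and *Mcm6*. At the other end *Tk1*, *Mcm10* and *Gins4* were not called. No replication gene lay between *Gins4* at 1.75-fold lower and *Rfc3* at 3.05-fold lower. Scaling sets the absolute ratios: with total counts all 45 genes were called lower, but so were 48.7% of all genes tested, with 16.0% higher. The share of higher genes among all called genes was then 24.7%, in place of 51.0% with TMM. The distance between the median of the replication genes and that of all genes tested, -2.89, does not move with a common factor.

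**Figure D1:**
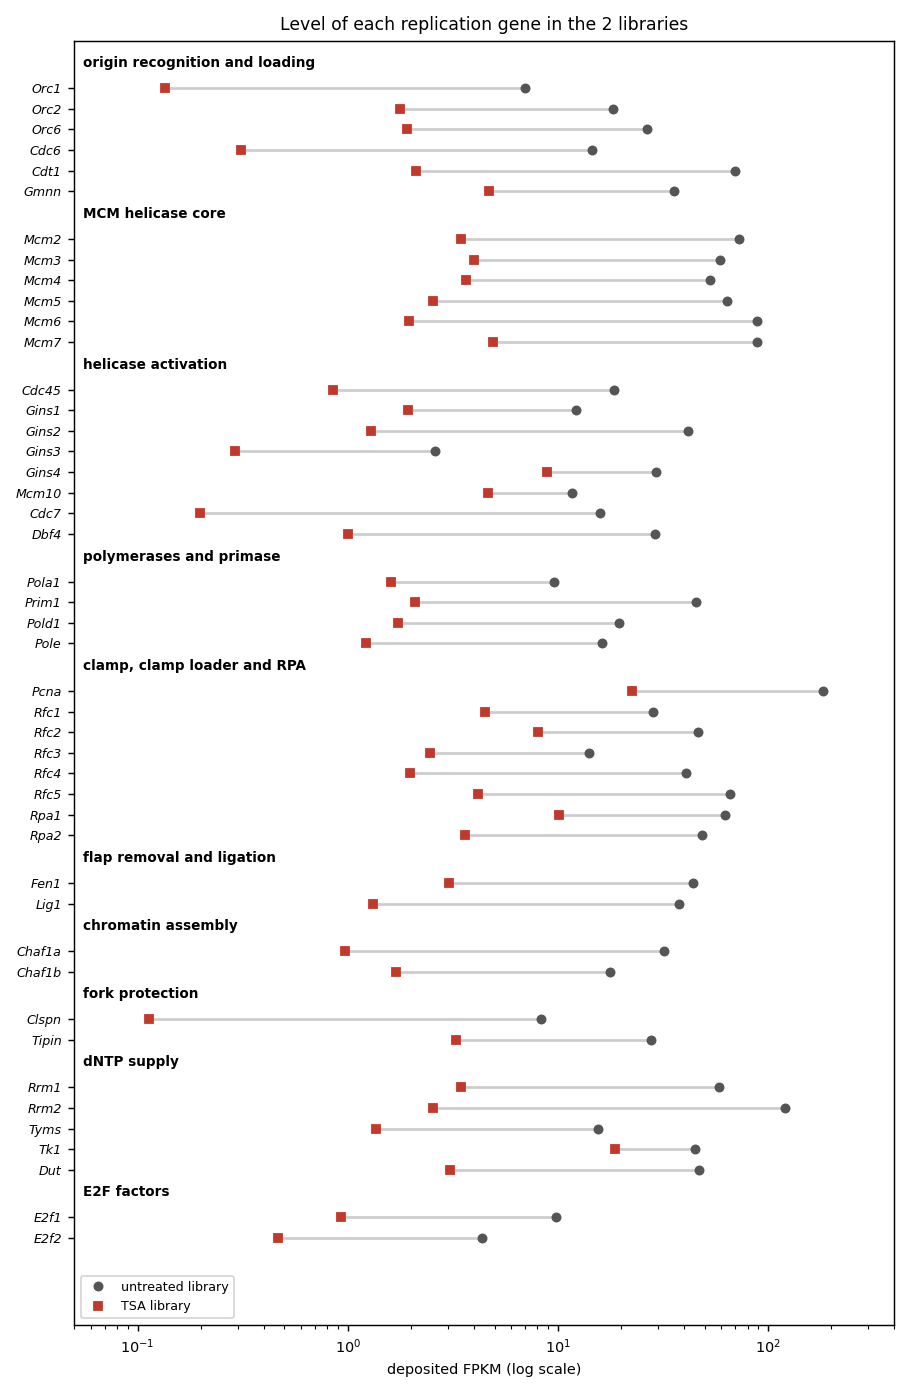
Deposited FPKM (log axis) of each of the 45 replication genes, grouped by role, in the untreated library (grey circles) and the TSA library (red squares), 1 library each. Every square lies to the left of its circle, and the shortest lines belong to *Tk1*, *Mcm10* and *Gins4*.

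**Figure D2:**
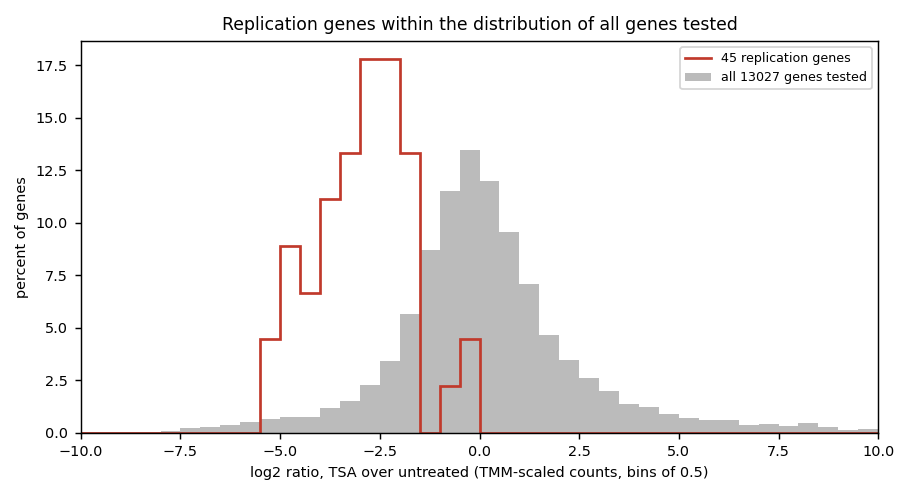
Percent of genes per bin of 0.5 in the log2 ratio of TMM-scaled counts, TSA over untreated, for the 13027 genes tested (grey bars) and the 45 replication genes (red outline), with ratios beyond the axis placed in the end bins. The outline lies almost wholly left of the bulk of the bars, apart from the 3 genes that were not called.

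Promoter sequence is a feature that the choice of genes did not use. RefSeq promoters (GRCm38.p6), from 250 bases before to 50 after a transcript start, were available for 37 of the 45 genes. A strict E2F site was searched on both strands as TTTCCCGC, TTTCGCGC, TTTGCCGC or TTTGGCGC. It was found in 14 of 37 genes (37.8%) and in 704 of 27025 symbols with a promoter in the same table (2.605%). CCAAT, the letters bound by the factor NF-Y, was found in 23 of 37 genes (62.2%) and 41.1% of all symbols. The E-box CACGTG, to which MYC with its partner MAX can bind, was found in 6 of 37 (16.2%) and 8.09%. TTTGAA, the cell cycle homology region (CHR) element common at genes of mitosis, was found in 7 of 37 (18.9%) and 20.2%. Base composition was not matched between the replication genes and the rest, and a match does not show that a factor was bound. The symbols with a promoter include genes not tested here. A symbol with several starts was counted when any of them matched. The 14 genes with an E2F match had a median log2 ratio of -3.50 and all were called lower. The 23 genes with a promoter but no such match had a median of -2.94, and 21 of them were called lower. For the 8 genes with no promoter available the median was -2.08, and 7 were called lower. Whether a match goes with a lower ratio was not tested.

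Stretches before the start are shown only where they lay outside GENCODE M21 exons. Every stretch with an E2F match that met this limit is given. The E2F stretches come from *Mcm6* at chr1:128359720-128359840 (minus strand), *Mcm5* at chr8:75109331-75109392 (plus strand), *Cdc6* at chr11:98907988-98908045 (plus strand) and *Pola1* at chrX:93632261-93632318 (minus strand). All are read 5′ to 3′ on the gene's strand, and capitals mark E2F matches. The longer run of capitals in *Mcm6* and in *Mcm5* is a pair of matches, 1 on each strand, that overlap.
Mcm6: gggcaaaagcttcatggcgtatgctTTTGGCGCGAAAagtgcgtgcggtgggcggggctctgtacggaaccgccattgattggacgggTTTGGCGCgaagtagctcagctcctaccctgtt
Mcm5: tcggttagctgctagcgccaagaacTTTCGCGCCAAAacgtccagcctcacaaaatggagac
Cdc6: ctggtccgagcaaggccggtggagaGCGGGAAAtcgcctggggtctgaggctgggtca
Pola1: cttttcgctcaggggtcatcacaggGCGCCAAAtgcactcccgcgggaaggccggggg

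Within these, *Mcm6* with 3 matches was 23.9-fold lower and *Mcm5* with 2 matches 13.4-fold lower. With 1 match each, *Cdc6* was 24.8-fold lower and *Pola1* 3.15-fold lower. A relation between the number of matches and the ratio was not tested. For contrast, *Rrm2*, *Rrm1* and *Mcm10* held no match to the strict E2F site in the window searched. Stretches of these genes, with CCAAT in capitals, come from *Rrm2* at chr12:24708179-24708233 (plus strand), *Rrm1* at chr7:102441579-102441679 (plus strand) and *Mcm10* at chr2:5012792-5012914 (minus strand). The *Rrm1* stretch does hold TTCCCGC, which is TTTCCCGC without its first letter, and looser forms of the site were not searched.
Rrm2: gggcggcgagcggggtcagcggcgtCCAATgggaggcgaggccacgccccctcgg
Rrm1: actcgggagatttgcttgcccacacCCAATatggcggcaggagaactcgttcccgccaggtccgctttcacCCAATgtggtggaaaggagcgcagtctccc
Mcm10: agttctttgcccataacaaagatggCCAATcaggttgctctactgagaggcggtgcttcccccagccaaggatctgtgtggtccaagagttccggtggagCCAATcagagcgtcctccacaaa
*Rrm2* was 24.9-fold lower and *Mcm10* 1.32-fold lower, so genes with CCAAT boxes stood at both ends of the range.

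**Figure D3:**
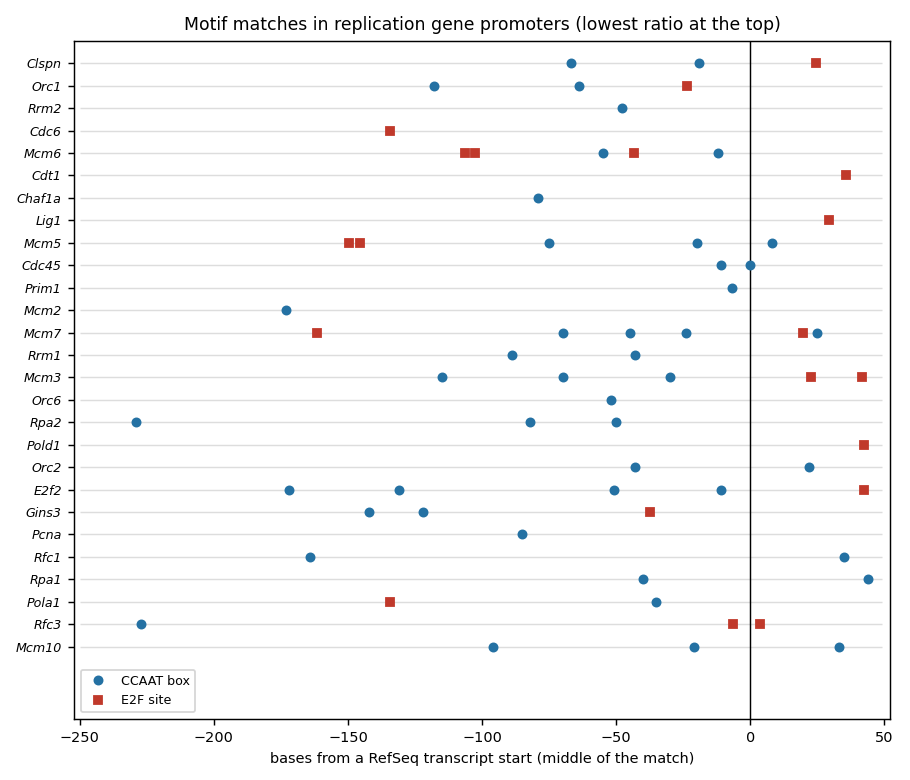
Position of E2F matches (red squares) and CCAAT matches (blue circles) in bases from a RefSeq transcript start for the 27 replication genes with either match, from the lowest ratio at the top to the highest. Where RefSeq gives several starts their windows share a row; red squares occur from the top row, *Clspn*, to the row of *Rfc3*, the last but *Mcm10*.

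Genes of origin recognition and loading had a median log2 ratio of -3.50, and all 6 were called lower. *Orc1*, for the ORC subunit that comes and goes with the cell cycle, stood at 523 counts (6.99 FPKM) in the untreated library and at 10 (0.135 FPKM) in the TSA library. Its ratio was 27.4-fold (14.8 to 57.4) lower. *Orc2*, for a core subunit, had 1132 and 108 counts and was 5.48-fold (4.5 to 6.74) lower. *Orc6*, for the smallest subunit, had 762 and 54 counts and was 7.38-fold (5.60 to 9.92) lower. The complex therefore did not move as a block. The ratio of *Orc1* was 4.99 times (2.58 to 10.8) further down than that of *Orc2*. The subunit genes *Orc3*, *Orc4* and *Orc5*, which were not among the 45, were 1.76-fold, 1.98-fold and 1.52-fold lower and not called. *Orc1* made up 6.89% of the summed FPKM of the 6 ORC genes without treatment and 0.694% with TSA, while *Orc5* went from 25% to 45.2%.

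*Cdc6*, for the ATPase that brings MCM rings to ORC, had 1232 counts without treatment and 26 with TSA, and was 24.8-fold (16.8 to 38.1) lower. *Cdt1*, for the chaperone that carries the ring, had 2631 counts (69.5 FPKM) and 79 counts (2.11 FPKM), and was 17.4-fold (13.9 to 22.1) lower. Geminin, the product of *Gmnn*, binds CDT1 and blocks a further round of loading. *Gmnn* had 670 counts (35.9 FPKM) and 87 counts (4.71 FPKM), and was 4.03-fold (3.22 to 5.10) lower. The difference between the loader and its inhibitor was 4.32 times (3.11 to 6.01), a value that scaling does not move. Per length, *Cdt1* stood at 1.94 times the level of *Gmnn* without treatment and at 0.448 times with TSA, so their order turned over.

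The helicase core had a median log2 ratio of -3.37, with all 6 genes called lower between 7.63-fold and 23.9-fold. *Mcm6* had 6771 counts (88.4 FPKM) without treatment, the most of any replication gene, and 148 (1.95 FPKM) with TSA. *Mcm6* was 23.9-fold (20.3 to 28.4) lower. *Mcm5* had 3812 and 149 counts and was 13.4-fold (11.4 to 15.9) lower, and *Mcm2* had 4254 and 200 counts and was 11.1-fold (9.66 to 12.9) lower. The remaining ring genes differed less. *Mcm7* had 4697 and 257 counts and was 9.56-fold (8.43 to 10.9) lower. *Mcm3* had 2952 and 197 counts and was 7.84-fold (6.79 to 9.10) lower. *Mcm4* had 3280 counts (52.9 FPKM) and 225 counts (3.67 FPKM) and was 7.63-fold (6.66 to 8.77) lower.

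The 6 MCM proteins join 1 to 1 in the ring, and their transcripts were near each other per length without treatment, with the highest 1.68 times the lowest. In the TSA library the span was 2.52 times. *Mcm6* moved from 20.7% of the summed FPKM of the ring genes, second to *Mcm7*, to 9.51%, the lowest of the 6. The ratio of *Mcm6* was 3.14 times (2.53 to 3.90) further down than that of *Mcm4* and 1.79 times (1.41 to 2.27) further than that of *Mcm5*. For *Mcm3* and *Mcm4* the difference was 1.03 times, with an interval from 0.84 to 1.26 that includes 1.

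**Figure D4:**
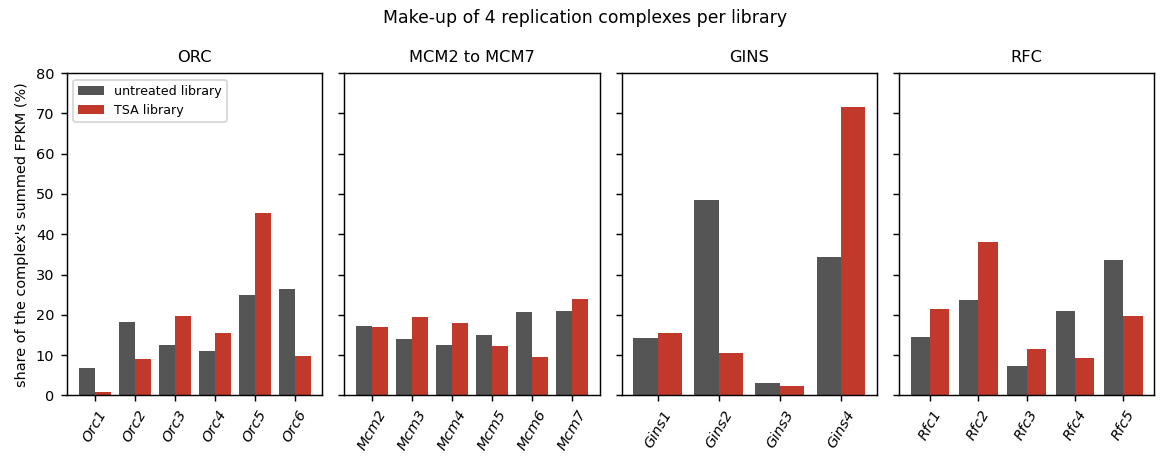
Share of each subunit gene in the summed deposited FPKM of its complex (%), for ORC, MCM2 to MCM7, GINS and RFC, in the untreated library (grey bars) and the TSA library (red bars), 1 library each; *Orc3*, *Orc4* and *Orc5* are not among the 45 genes. The largest changes in share are in GINS, where *Gins2* goes from 48.5% to 10.5% and *Gins4* from 34.3% to 71.6%, and in the MCM ring *Mcm6* shows the largest step.

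Helicase activation held both the largest and some of the smallest differences, with a median log2 ratio of -2.88 and 6 of 8 genes called lower. *Cdc7*, for the kinase that fires loaded origins, stood at 891 counts (15.9 FPKM) in the untreated library and at 11 (0.198 FPKM) in the TSA library. Its ratio was 42.4-fold (23.6 to 85.2) lower, the largest difference among the 45. Its activating partner *Dbf4* had 1226 and 42 counts and was 15.3-fold (11.2 to 21.3) lower. *Cdc45*, for the protein that joins MCM and GINS in the active helicase, had 855 and 39 counts and was 11.5-fold (8.32 to 16.2) lower.

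GINS is a complex of 4 small subunits, and its genes spread widely. *Gins2* stood at 745 counts (41.5 FPKM) in the untreated library and at 23 (1.30 FPKM) in the TSA library, and was 16.9-fold (11.2 to 26.9) lower. *Gins3* had the fewest counts of all 45 genes, 108 and 12, and was 4.71-fold (2.59 to 9.40) lower. *Gins1* had 340 and 53 counts and was 3.36-fold (2.51 to 4.57) lower. *Gins4* stood apart with 692 counts (29.4 FPKM) and 207 counts (8.88 FPKM). It was 1.75-fold (1.5 to 2.05) lower and not called. Relative to *Gins4*, *Gins2* was 9.69 times (6.19 to 15.8) further down. *Gins2* passed from 48.5% to 10.5% of the summed FPKM of the complex, and *Gins4* from 34.3% to 71.6%.

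*Mcm10*, for a factor that binds the activated helicase and helps it open DNA, stood at 1352 counts (11.6 FPKM) in the untreated library and at 534 (4.65 FPKM) in the TSA library. Its ratio was 1.32-fold (1.20 to 1.47) lower and not called. Per length, *Mcm10* stood at 0.629 times the level of *Cdc45* without treatment and at 5.45 times with TSA.

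Polymerase and primase genes were all called lower, with a median log2 ratio of -2.68. *Prim1*, for the primase subunit that makes the RNA primer, stood at 1202 counts (45.4 FPKM) in the untreated library and at 55 (2.10 FPKM) in the TSA library, and was 11.4-fold (8.72 to 15.3) lower. *Pola1*, for the catalytic subunit of the polymerase alpha that extends this primer, had 897 counts (9.61 FPKM) and 149 counts (1.61 FPKM) and was 3.15-fold (2.65 to 3.77) lower. *Pole*, for the leading strand polymerase, had 2067 counts (16.2 FPKM) and 155 counts (1.23 FPKM) and was 6.98-fold (5.92 to 8.27) lower. *Pold1*, for the lagging strand polymerase, had 1155 and 102 counts and was 5.92-fold (4.84 to 7.33) lower. The genes of the leading and lagging strand enzymes were thus close, and the primer-making pair *Prim1* and *Pola1* marked the ends of the role.

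The clamp, its loader and the replication protein A (RPA) genes had the smallest median of the 10 roles, -1.92, with all 8 called lower. *Pcna*, for the ring that tethers polymerases to DNA, was the most abundant of the 45 per length in both libraries, at 4004 counts (184 FPKM) untreated and 484 (22.5 FPKM) under TSA. It was 4.33-fold (3.94 to 4.77) lower. In the loader RFC, *Rfc1*, *Rfc2* and *Rfc3* lay close together and *Rfc4* and *Rfc5* further down. *Rfc1*, for the large subunit, had 2735 and 430 counts and was 3.33-fold (3.0 to 3.69) lower, and *Rfc2* had 1218 counts (46.4 FPKM) and 209 counts (8.06 FPKM) and was 3.05-fold (2.63 to 3.55) lower. *Rfc3* had 297 counts (14.1 FPKM) and 51 counts (2.46 FPKM), and its ratio did not differ from that of *Rfc2* beyond counting error (1.0 times, 0.703 to 1.40). *Rfc5* had 1978 and 123 counts and was 8.41-fold (7.01 to 10.2) lower. *Rfc4* had 861 counts (41.0 FPKM) and 41 counts (1.97 FPKM) and was 11.0-fold (8.03 to 15.4) lower, 3.6 times (2.53 to 5.22) further down than *Rfc2*. *Rfc1* and *Rfc2* did not differ from each other beyond counting error (1.09 times, 0.908 to 1.31).

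RPA coats the unwound strands in replication and in repair. *Rpa1*, for its large subunit, stood at 3375 counts (62.4 FPKM) in the untreated library and at 541 (10.1 FPKM) in the TSA library, and was 3.26-fold (2.98 to 3.58) lower. *Rpa2* had 1493 and 110 counts and was 7.10-fold (5.85 to 8.70) lower, 2.18 times (1.75 to 2.72) further down than *Rpa1*. With *Pcna* and *Tk1*, *Rpa1* was 1 of only 3 replication genes above 10 FPKM in the TSA library, where 39 had been above it without treatment.

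Genes that finish and package the new strand were all called lower. *Lig1*, for the ligase that joins Okazaki fragments, stood at 2307 counts (37.9 FPKM) in the untreated library and at 79 (1.31 FPKM) in the TSA library, and was 15.3-fold (12.2 to 19.4) lower. *Fen1*, for the nuclease that trims their flaps, had 1814 counts (43.8 FPKM) and 124 counts (3.03 FPKM) and was 7.65-fold (6.38 to 9.26) lower. The repair ligase gene *Lig3* was 2.60-fold (2.38 to 2.85) lower, and *Lig1* was 5.87 times (4.61 to 7.57) further down than *Lig3*. *Chaf1a*, for the large subunit of the histone chaperone CAF-1, had 1826 counts (31.9 FPKM) and 55 counts (0.973 FPKM) and was 17.4-fold (13.3 to 23.1) lower. *Chaf1b*, for its middle subunit, had 624 counts (17.7 FPKM) and 59 counts (1.70 FPKM) and was 5.53-fold (4.23 to 7.36) lower.

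Of the fork protection genes, *Clspn* stood at 971 counts (8.34 FPKM) in the untreated library and at 13 (0.113 FPKM) in the TSA library, the lowest level of the 45 per length. Its product claspin carries the checkpoint signal from stalled forks to CHK1. *Clspn* was 39.1-fold (22.7 to 73.7) lower. *Tipin*, whose product holds TIMELESS at the fork, had 1028 counts (27.6 FPKM) and 121 counts (3.29 FPKM) and was 4.45-fold (3.68 to 5.41) lower. The partner gene *Timeless*, not among the 45, was 6.22-fold (5.15 to 7.56) lower.

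Genes of deoxyribonucleotide (dNTP) supply had a median log2 ratio of -3.03, and 4 of 5 were called lower. Ribonucleotide reductase makes all dNTPs, with *Rrm1* coding for its large subunit and *Rrm2* for its S phase small subunit. *Rrm2* stood at 4520 counts (120.0 FPKM) in the untreated library and at 95 (2.55 FPKM) in the TSA library, and was 24.9-fold (20.3 to 30.8) lower. *Rrm1* had 4020 counts (58.2 FPKM) and 236 counts (3.46 FPKM), and was 8.91-fold (7.81 to 10.2) lower. The difference between the subunits was 2.79 times (2.18 to 3.6), and *Rrm2* went from 2.06 to 0.738 times the FPKM of *Rrm1*. *Rrm2b*, for the small subunit used outside S phase and not among the 45, had 69 and 64 counts, a ratio of 1.77-fold (1.24 to 2.53) with TMM and 0.938-fold with total counts. Against *Rrm2b*, *Rrm2* was 44.1 times (29.0 to 66.7) further down.

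Thymidylate synthase and dUTPase make and guard the precursor of dTTP. *Tyms* had 1424 counts without treatment and 124 with TSA, and was 6.01-fold (5.0 to 7.28) lower. *Dut* had 2047 and 131 counts and was 8.18-fold (6.85 to 9.83) lower. *Tk1*, for the thymidine kinase of the salvage route, had 1584 counts (44.8 FPKM) and 652 counts (18.6 FPKM). It was 1.27-fold (1.16 to 1.39) lower and not called, and *Tyms* was 4.73 times (3.84 to 5.85) further down than *Tk1*. The mitochondrial kinase gene *Tk2*, not among the 45, had 184 and 258 counts and was called higher at 2.68-fold (2.21 to 3.26), and total counts gave 1.42-fold and no call.

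The E2F activator genes differed by near amounts. *E2f1* stood at 523 counts (9.77 FPKM) in the untreated library and at 49 (0.925 FPKM) in the TSA library, and was 5.58-fold (4.16 to 7.65) lower. *E2f2* had 378 counts (4.37 FPKM) and 40 counts (0.468 FPKM) and was 4.94-fold (3.56 to 7.03) lower. Their ratios did not differ beyond counting error (1.13 times, 0.709 to 1.79).

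**Figure D5:**
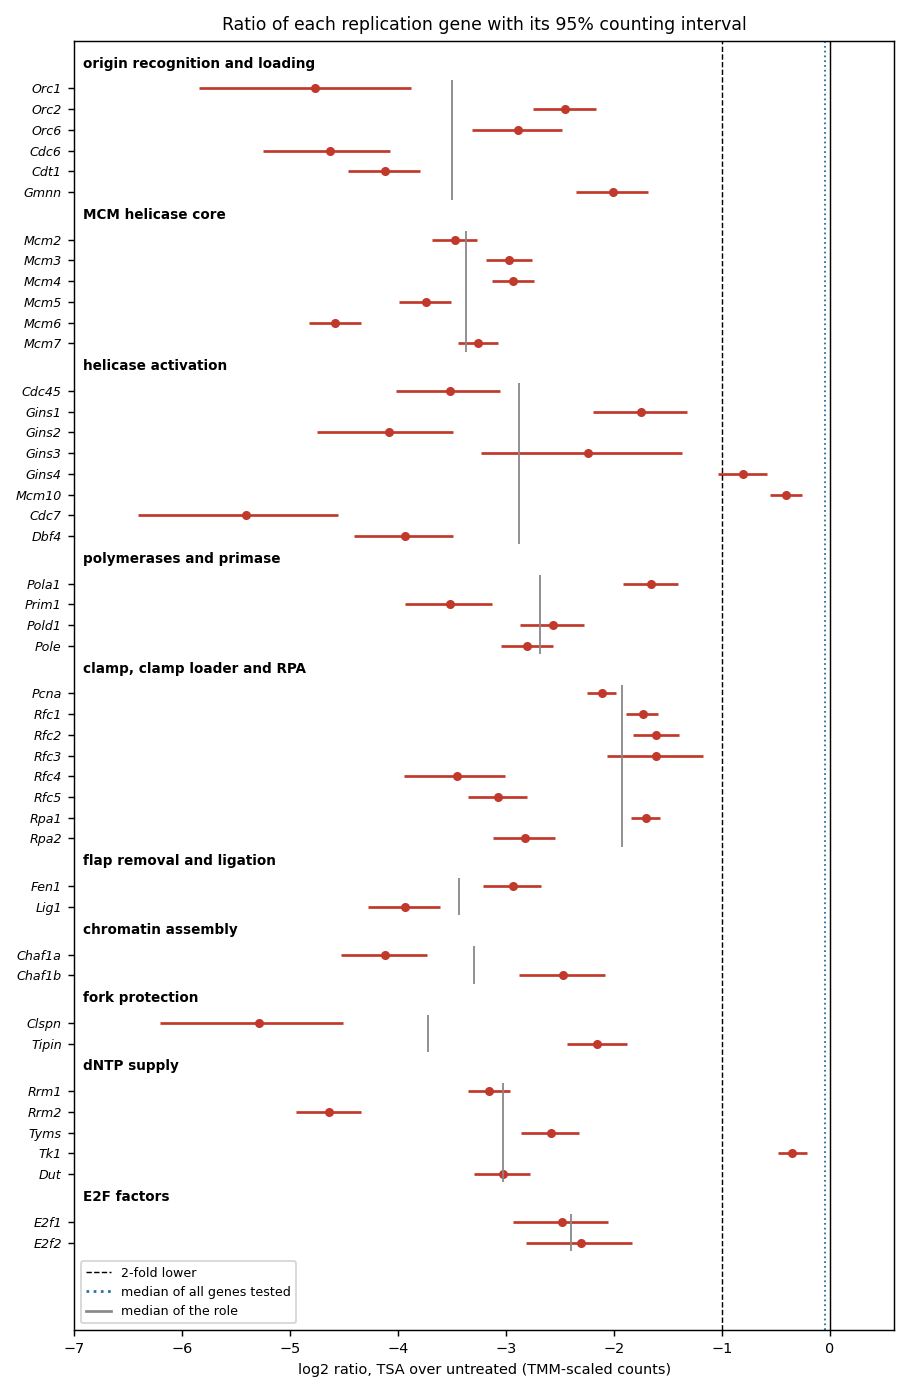
Log2 ratio of TMM-scaled counts, TSA over untreated, for each of the 45 replication genes (points) with its 95% counting interval (bars), by role. Dashed, dotted and grey lines mark 2-fold lower, the median of all genes tested and the median of each role; *Tk1*, *Mcm10* and *Gins4* lie right of the dashed line, and GINS, RFC and ORC genes spread more widely than their intervals.

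Neighbouring genes of the 3 uncalled members were read from the RefSeq gene order and GENCODE M21 strands. *Tk1* overlaps *Afmid*, a gene on the opposite strand for a tryptophan-degrading enzyme of the liver. *Afmid* had 324 counts without treatment and 4025 with TSA, and was called higher at 23.7-fold (21.2 to 26.7). Whether counting used strand is not stated in the sources used here, so reads from the overlap of *Tk1* and *Afmid* cannot be told apart. The other neighbours of *Tk1* were *Syngr2*, at 1.35-fold lower, and the mitosis gene *Birc5*, at 75.9-fold (49.1 to 125) lower. *Mcm10* overlaps no listed gene. Its neighbour *Optn*, on the same strand, had 97 and 1354 counts and was called higher at 26.7-fold (21.7 to 33.1), and *Ucma* on the other side had 0 counts in both libraries. *Gins4* overlaps no listed gene either, and its neighbours on the same strand were *Gpat4*, called higher at 2.05-fold (1.95 to 2.16), and *Golga7*, at 1.44-fold. Total counts gave 1.08-fold for *Gpat4* and 0.763-fold for *Golga7*. The part of these neighbours in the counts of the 3 genes was not tested. In all, 11 of the 45 genes overlap another listed gene, and of the 34 that do not, 32 were called lower.

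Other parts of the pathway were described from lists of related genes. Of 34 further replication factors 27 were called lower and 1 higher, beside 26.0% and 27.0% of all genes tested. Their median log2 ratio was -2.00. *Ticrr*, for the origin firing factor treslin, was 75.7-fold (34.6 to 207) lower, on 868 and 6 counts. *Dscc1*, for a subunit of an alternative clamp loader, had 73 counts and 1 count, a ratio of 38.2-fold lower with a wide interval (6.64 to 1529). *Ssrp1*, for a histone chaperone subunit, was 4.0-fold (3.76 to 4.27) lower, and *Rbbp4*, for the small subunit of CAF-1, 2.03-fold (1.93 to 2.14) lower. *Pold4*, for the smallest subunit of polymerase delta, was the sole gene called higher, at 2.98-fold (2.29 to 3.88), and total counts gave 1.57-fold and no call.

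Among 16 further dNTP enzymes 6 were called lower and 3 higher, with a median log2 ratio of -0.60. Shares of all genes tested were 26.0% lower and 27.0% higher, so these counts do not set the list apart. The deaminase gene *Dctd*, which makes dUMP from dCMP, was 33.7-fold (18.7 to 67.9) lower. The nucleoside diphosphate kinase genes *Nme1* and *Nme2* were 3.36-fold and 2.61-fold lower. The higher genes were *Tk2* and the genes *Tymp* and *Cda* of pyrimidine nucleoside breakdown. *Tymp* had 10 and 796 counts, a ratio of 152-fold (82.3 to 318) higher. *Cda* had 2 and 80 counts, a ratio of 76.5-fold (20.5 to 642) higher.

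Of 20 further E2F, RB and S phase entry genes 14 were called lower and 2 higher, beside 26.0% and 27.0% of all genes tested. Their median log2 ratio was -1.48. *Ccna2*, for cyclin A2, was 92.1-fold (64.8 to 136) lower, and *Ccne1*, for cyclin E1, 20.8-fold (15.0 to 29.8) lower. *Tfdp1*, for the partner of E2F proteins, was 6.30-fold (5.78 to 6.87) lower. The higher genes with TMM were *Rbl2*, for the pocket protein p130 of resting cells, and *Lin52*, for a subunit of the complex that p130 joins. *Rbl2* had 380 and 748 counts, 3.76-fold (3.32 to 4.27) higher, while total counts gave 1.99-fold. *Lin52* had 140 and 151 counts, 2.06-fold (1.63 to 2.61) higher, while total counts gave 1.09-fold, and neither was called with that scaling.

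Licensing proteins are also removed by ubiquitin ligases, and 6 of 8 genes of that turnover were called lower, with a median log2 ratio of -2.57. The most abundant, *Ddb1*, was 2.46-fold (2.38 to 2.55) lower, and *Cdc20* and *Fbxo5* were 62.6-fold and 46.8-fold lower. *Cul4a*, for the scaffold of the ligase that removes CDT1, was second in counts with 2408 and 2353. Its ratio was 1.87-fold (1.76 to 1.98) higher and not called, and total counts gave 0.988-fold. Polymerases and ligases of repair and lesion bypass gave 6 of 15 called lower and none higher, with a median of -0.78, beside 26.0% and 27.0% of all genes tested. With total counts 12 of 15 were called lower, beside 48.7% of all genes tested. *Parp1* was 4.23-fold (3.95 to 4.53) lower, *Xrcc1* 6.32-fold (5.38 to 7.47) lower and *Polq* 63.8-fold (29.2 to 175) lower. The 10 mitosis markers were all called lower, with a median of -6.07. *Top2a*, which encodes topoisomerase II alpha, had 10315 and 57 counts and was 94.7-fold (73.0 to 125) lower. *Mki67*, for the proliferation marker Ki-67, had 9286 and 107 counts and was 45.4-fold (37.5 to 55.5) lower. *Ccnb1*, for cyclin B1, was 130.4-fold (77.6 to 239) lower, and the kinase gene *Plk1* 114-fold (66.5 to 214) lower. The highest log2 ratio among the mitosis markers, -5.50 for *Mki67*, lay below that of each of the 45 genes, the lowest of which was -5.41 for *Cdc7*, but above that of *Ticrr* at -6.24.

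Cell type markers differed between the libraries too. For comparison, 27.0% of all genes tested were called higher and 26.0% lower. Hepatocyte genes were called higher in 9 of 9 cases and made up 1.41% of the untreated library and 13.9% of the TSA library. Their summed counts were 18.7-fold higher with TMM, and 9.19-fold higher without *Alb*, the gene of albumin, which held most of them. Endothelial markers were called higher in 6 of 7 (5.87-fold summed) and erythroid markers in 4 of 4 tested (5.30-fold). B cell markers were called higher in 4 of 4 (11.5-fold, on 19 and 114 counts in all). With total counts these sums were 3.11-fold, 2.80-fold and 6.07-fold higher. Kupffer and macrophage markers were higher in 4 of 7 and lower in 1 (1.75-fold summed, 0.928-fold with total counts and 2.93-fold without *Cd5l*). Stellate markers were higher in 5 of 6 and lower in 1 (3.03-fold, 1.60-fold with total counts and 11.5-fold without *Col1a1*). Of the T and NK cell markers 4 of 7 had enough counts and 1 was higher. Their sum was 1.04-fold with TMM and 0.552-fold with total counts. Of the neutrophil markers 2 of 5 had enough counts and both were higher. Cholangiocyte markers split, with 2 higher and 2 lower, and were 5.59-fold lower summed, at 0.35 times the untreated level without *Krt7*. *Ly6g* had 0 counts in both libraries, and *Cftr* and *Hba-a2* had 0 counts with TSA and no more than 4 without. The part of these differences in the replication gene ratios was not tested.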

How the data were processed

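PolyA RNA from liver was sequenced in 2 libraries, 1 per group. The deposited files give whole-number counts per gene symbol, not normalized, and FPKM per gene from the authors. Lengths implied by counts, FPKM and library totals were whole and equal between libraries, to 0.1 base, in each of the 14271 genes counted in both. The submitters' processing notes name Trimmomatic, HISAT2, Bowtie2 and DESeq, without roles. The build, the gene models, the counter and its use of strand: not given in the sources used here.

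Genes with at least 20 counts over both libraries (13027) were tested. Counts were scaled by TMM in edgeR 4.0.16 (R 4.3.3), with factors 1.375 and 0.727. Ratios carry exact conditional binomial 95% intervals from scipy 1.17.1, which cover counting error only. In ratios, 3 counts stood in for 0. A call needed 2-fold and an interval excluding 1. Ratios of 25 gene pairs, chosen after their values were seen, were compared by sample odds ratios with exact conditional 95% intervals. Of these intervals, 20 excluded 1. The ratios and calls were tested on simulated counts with no variation between animals, scaled by total counts. TMM scaling was not checked in this way.

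The genes, lists and tests were chosen with earlier results of these data known. All 45 genes are named. In each role the gene with most counts, the largest and smallest ratio and every uncalled gene are given with FPKM; scaled CPM, also in the rule, are not printed. In each further list the 2 with most counts, the 2 with the largest difference and those called higher are named. *Dctd*, *Rrm2b*, *Orc3*, *Orc4*, *Orc5* and *Timeless* were added after their values were seen. Alternatives were total counts, DESeq2 size factors, upper-quartile scaling, FPKM with 0.1 added, other count minimums, calls at 1.5-fold, at 4-fold or only where the whole interval passed 2-fold, and promoters without the 50 bases after the start.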

Additional observations from a re-analysis of the deposited data

How the results depend on the processing

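With 1 library per group nothing can be left out, and no biological error is known. No paired analysis was possible because each group has 1 library. Scaling moved the ratios most. With total counts the median log2 ratio of the 45 genes was -3.85 and that of all genes -0.96. All genes tested were then called lower in 48.7% and higher in 16.0%, and 24.7% of called genes were higher. Medians by role were -4.42 (origins), -4.29 (MCM), -3.80 (activation), -3.60 (polymerases), -2.84 (clamp and RPA), -4.35 (flap and ligation), -4.21 (chromatin assembly), -4.64 (fork protection), -3.95 (dNTP supply) and -3.31 (E2F). Genes called higher numbered 0 among further replication factors and 0 among E2F and RB genes, and 12 repair genes were called lower. With FPKM plus 0.1 the median was -3.81, that of all genes -0.91, with 47.5% lower, 15.2% higher and 24.3% of called genes higher. Medians by role were then -4.32 (origins), -4.25 (MCM), -3.51 (polymerases), -2.83 (clamp and RPA), -4.28 (flap and ligation), -4.11 (chromatin assembly), -3.91 (dNTP supply) and -3.12 (E2F). Further replication factors and E2F and RB genes again gave 0 called higher, and 11 repair genes were lower. Upper-quartile scaling left 1 E2F and RB gene called higher. Without a count minimum the median of all genes was 0.11. At 4-fold, 12.0% of all genes were lower and 15.5% higher. In the 250 bases before the start alone, 21.6% of the genes with a promoter held an E2F match, and 2.16% of all symbols. The count of 42 called lower was the same with DESeq2 size factors and upper-quartile scaling, 45 with total counts and FPKM, 36 at 4-fold, 43 at 1.5-fold (34.8% of all genes) and 42 where the whole interval had to pass 2-fold (20.6%). TMM over all symbols, the 34 genes without an overlap (median -2.82) and marker lists without their gene with most counts were added after seeing the data.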
